A study of Mus musculus with 2 samples.

Results

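Heparan sulfate proteoglycans are core proteins that carry long sulfated sugar chains on the cell surface and in the matrix. The 35 genes described here were taken by symbol from the authors' expression table and comprise the syndecan and glypican core proteins, the enzymes that start, extend and sulfate the chains, the enzymes that trim them and the genes that supply their precursors. All 35 stand in the table of 26127 genes, with 1 row each. Of them, 28 had a mean of at least 1 RPKM (reads per kilobase of gene and per 1000000 reads) over both libraries, the level at which differences are counted below, and 7 did not. Of all genes in it, 10868 reached that level.

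RNA came from PS10, a female mouse line of extraembryonic endoderm stem (XEN) cells of the ICR strain, which stand for the primitive endoderm of the blastocyst. Cells were transfected with a locked nucleic acid (LNA) against Gata6-AS, a noncoding RNA transcribed antisense to the endoderm factor gene Gata6, or with a control LNA (the sample titles say siRNA for both), and each group is 1 library of this 1 line. The comparison asks how the transcriptome looked once Gata6-AS had been targeted. Without replicates the conditions could not be tested against each other, so every difference below compares these 2 libraries and has no replicate check.

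The depth behind the values, read from the steps of the RPKM values, was 1.04e+08 reads in the control and 1.23e+08 in the Gata6-AS LNA library. The targeted RNA stood at 57.8% of control (10.1 against 5.83 RPKM, exact 95% interval 50.5% to 66.1%) and Gata6 at 68.0%, and since their ends overlap on opposite strands and the use of strand in counting is not given, some reads cannot be assigned to either. XEN markers were present: all 11 were above 1 RPKM, and their summed level was 6054 RPKM in the control library and 4547 RPKM after Gata6-AS LNA. Of these 11 markers, 9 were lower in the Gata6-AS LNA library, and Sox7 by over 2-fold. None of 6 trophoblast and none of 6 fibroblast feeder markers had a mean of 1 RPKM. Of the trophoblast markers Cdx2 was highest, at 0.653 RPKM in the control library and 1.19 RPKM after Gata6-AS LNA (182%, 150% to 222%). The summed level was 0.987 against 1.64 RPKM for trophoblast and 0.00541 against 0.0150 RPKM for fibroblast markers, with Col3a1, Thy1 and Dcn at 0 in both libraries and Hand1 at 0 among the trophoblast markers. Of 5 pluripotency markers only Nanog reached 1 RPKM, at 4.61 against 5.07 RPKM, and Esrrb was at 0. The part of the lower XEN markers in the differences below was not tested.

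A heparan sulfate chain is built in the Golgi on a short linkage of sugars attached to serine residues of a core protein. The exostosins extend it with alternating glucuronic acid and N-acetylglucosamine, and N-deacetylase/N-sulfotransferases, an epimerase and O-sulfotransferases then modify stretches of it with sulfate from the donor PAPS. The resulting pattern decides which growth factors, morphogens, matrix proteins and coagulation factors a chain can bind. In the yolk sac, parietal endoderm lays down a thick basement membrane in which such chains are a major component.

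In the XEN cells the set was led by one sulfotransferase, and the 3-O-sulfotransferases were lower in the Gata6-AS LNA library. Hs3st1, whose product adds the rare 3-O-sulfate that completes the antithrombin binding site, had the highest level of the 35 genes in both libraries. Its level was 147 RPKM in the control library and 96.8 RPKM after Gata6-AS LNA, 65.8% of control. The sulfate donor gene Papss1 lay on the other side, at 12.1 RPKM in the control library and 19.5 RPKM after Gata6-AS LNA, 161% of control. In bulk RNA, fewer cells with a message and less message per cell cannot be told apart. On the scale of log2(RPKM + 1), 2 of the 28 measured members were at least 1.5-fold lower, Hs3st1 and Hs3st3b1, where 1.95% of all measured genes were. On the same scale 1 was at least 1.5-fold higher, Papss1, where 3.42% of all measured genes were. No measured member passed 2-fold, against 0.331% of all measured genes 2-fold higher and 0.451% 2-fold lower. The median log2 difference of the 28 members was -0.07, beside 0.05 over all 10868 genes. Of the members 17 lay below 0 and 11 above, so that 60.7% were below 0 beside 42.0% of all genes. These shares describe 2 libraries, and counts of 1 or 2 genes are too few to set the set apart from the background.

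**Figure D1:**
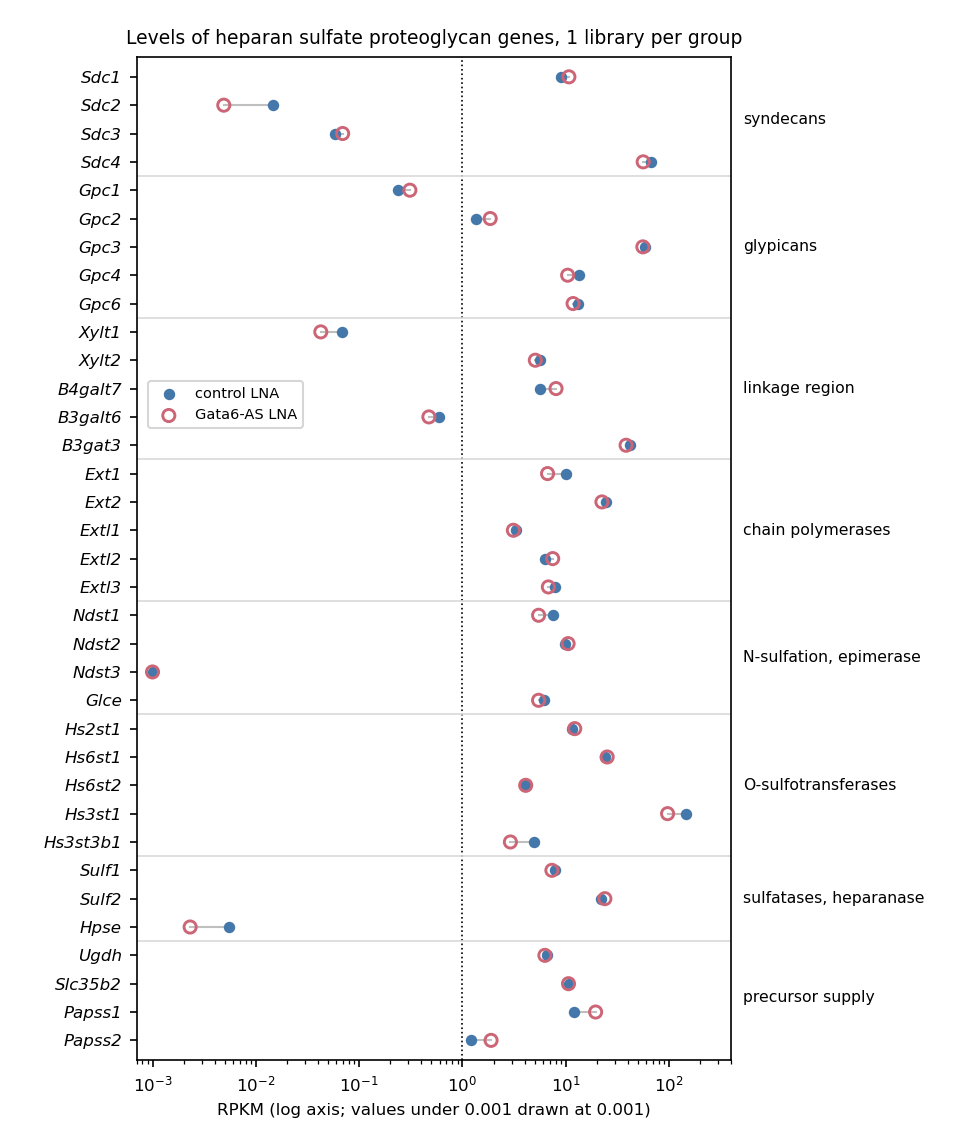
Level of each of the 35 genes in RPKM (log axis) in the control library (filled points) and the Gata6-AS LNA library (open points), grouped by role, with a dotted line at 1 RPKM. Hs3st1 is highest in both libraries at 147 and 96.8 RPKM, Sdc4 and Gpc3 follow, and 7 genes lie below 1 RPKM.

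Promoter sequences are shown for the 3 genes that passed the 1.5-fold rule, since the differences reported here are in their transcripts. They are RefSeq windows on GRCm38.p6 of 300 bases, running from 250 bases before to 50 bases after an annotated start. Each is written 5′ to 3′ on the gene's strand, with GC boxes (GGGCGG on either strand, the letters bound by Sp1 factors) in capitals. For Papss1, which has a pair of windows in that table, the upstream one is printed. The Hs3st1 window is at an annotated start well inside the 141541 bp span of the gene in mm9, not at its outer end. This was judged from the offset between mm9 and GRCm38.p6 at Ugdh on the same chromosome. Which start the cells use was not tested.
Hs3st1, chr5:39644582-39644881, minus strand: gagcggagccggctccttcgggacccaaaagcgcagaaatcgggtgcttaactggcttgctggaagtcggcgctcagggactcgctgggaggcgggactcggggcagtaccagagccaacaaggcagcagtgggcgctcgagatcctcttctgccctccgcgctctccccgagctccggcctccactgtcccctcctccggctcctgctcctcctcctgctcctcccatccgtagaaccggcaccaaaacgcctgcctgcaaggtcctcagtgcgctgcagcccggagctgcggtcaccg
Hs3st3b1, chr11:63922235-63922534, minus strand: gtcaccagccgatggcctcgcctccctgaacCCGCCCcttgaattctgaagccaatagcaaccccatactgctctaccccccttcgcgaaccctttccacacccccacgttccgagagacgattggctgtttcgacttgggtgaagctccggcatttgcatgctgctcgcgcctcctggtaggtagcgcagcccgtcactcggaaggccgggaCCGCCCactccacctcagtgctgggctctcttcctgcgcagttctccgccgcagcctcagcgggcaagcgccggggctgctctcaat
Papss1, chr3:131564518-131564817, plus strand: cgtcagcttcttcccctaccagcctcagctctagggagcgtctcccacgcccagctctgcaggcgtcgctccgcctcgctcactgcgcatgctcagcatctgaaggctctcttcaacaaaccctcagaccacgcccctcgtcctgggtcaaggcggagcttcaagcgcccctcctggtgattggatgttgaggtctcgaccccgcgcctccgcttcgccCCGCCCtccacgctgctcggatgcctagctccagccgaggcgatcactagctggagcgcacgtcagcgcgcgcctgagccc

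These windows are rich in G and C, at 67.0% for Hs3st1, 63.7% for Hs3st3b1 and 66.3% for Papss1. The median was 66.3% over the windows of measured members and 61.3% over those of all measured genes. Hs3st3b1 has 2 GC boxes, Papss1 has 1 and the Hs3st1 window has none in these letters. Among the measured members, 28 windows of 23 genes were found, and 64.3% of them held a GC box, beside 64.6% of 9675 windows of all measured genes. The letters of a GATA factor site (GATA with A or T before it and A or G after it, on either strand) were in none of the 3 printed windows. They were in 21.4% of the windows of measured members and 17.8% of those of all measured genes. The Sdc4, Gpc2 and B4galt7 windows held 1 match each, and both Papss2 windows did too. The downstream Papss1 window held 2. A match describes letters only and not a bound site.

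Among the cell surface core proteins, Sdc4 and Gpc3 made up most of the summed RPKM in both libraries. Sdc4, a broadly expressed syndecan of focal adhesions, was at 66.8 RPKM in the control library and 56.2 RPKM after Gata6-AS LNA. That is 84.0% of control. Its 95% interval, by the exact (Clopper-Pearson) method and for counting error alone, ran from 82.3% to 85.8%. Sdc1, the main epithelial syndecan, was at 9.02 against 10.7 RPKM, or 119% (113% to 125%). The pair thus lay on either side of the control level, and the share of Sdc4 in the summed RPKM of the 4 syndecans was 88.0% in the control and 83.9% in the Gata6-AS LNA library, while that of Sdc1 was 11.9% and 16.0%. Sdc3 stood at 0.0580 and 0.0693 RPKM. Sdc2 stood at 0.0145 and 0.00490 RPKM, which rests on 5 and 2 reads and gives a ratio of 33.7% (3.21% to 206%), so that no difference was detectable.

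Glypicans are held in the outer leaflet of the membrane by a lipid anchor. Gpc3, a regulator of Hedgehog and Wnt signalling and of body size, had the highest RPKM of them. It was at 59.0 RPKM in the control library and 55.8 RPKM after Gata6-AS LNA, 94.6% of control (92.6% to 96.6%). Its X-linked neighbour Gpc4 was at 13.4 against 10.4 RPKM, 77.8% (74.2% to 81.5%), which is the lowest ratio among the core proteins above 1 RPKM. Both lie on the minus strand of the X chromosome in mm9, Gpc4 from 49406198 to 49518429 and Gpc3 from 49625603 to 49967127, with 107173 bp between them. The 6-O-sulfotransferase gene Hs6st2 lies 371164 bp before Gpc4 on the same strand and was at 4.04 against 4.10 RPKM, so the ratios of these 3 neighbours ran from 77.8% to 101%. Gpc6 stood at 13.0 against 11.8 RPKM (90.3% of control). Gpc2, a glypican best known from developing neurons, stood at 1.36 against 1.86 RPKM (136%, 119% to 156%). Gpc1 was below 1 RPKM, at 0.239 and 0.310 RPKM. The sum of the 5 glypicans was 87.0 RPKM in control cells and 80.1 RPKM after Gata6-AS LNA, and Gpc3 held 67.8% and 69.6% of these sums. These shares are uncertain, because the gene lengths used for RPKM are not given. The shortest length that gave whole reads was 27680 bp for Gpc4 and 16681 bp for Gpc6. Their exonic lengths in the GENCODE M21 annotation are 2651 and 3662 bp. The ratio of a gene between the libraries does not depend on its length. No core protein passed the 1.5-fold rule.

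**Figure D2:**
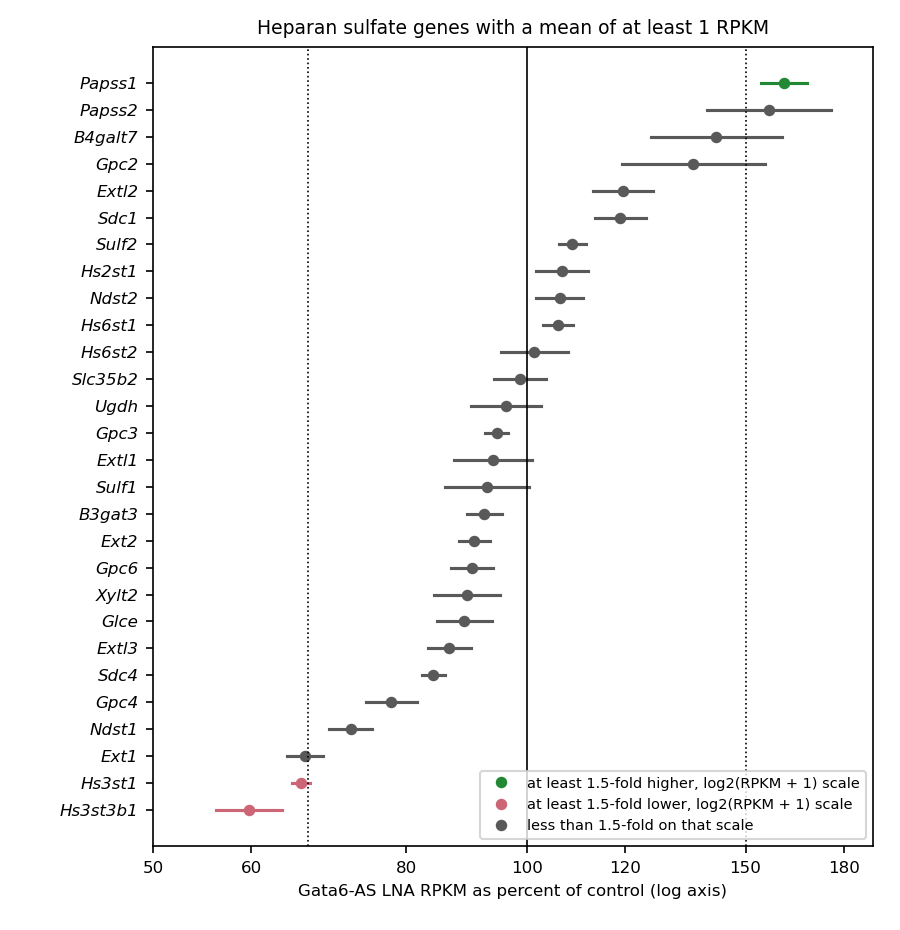
Level in the Gata6-AS LNA library as percent of the control level (log axis) for the 28 genes that reached 1 RPKM on average, with exact 95% intervals that cover counting error only and dotted lines at a 1.5-fold ratio. Hs3st3b1 is lowest at 59.7% and Papss1 highest at 161%, and colours mark the genes past 1.5-fold by log2(RPKM + 1), a scale that understates the ratio of low genes.

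The linkage region of xylose, galactose, galactose and glucuronic acid is shared with chondroitin sulfate, so its enzymes serve both kinds of chain. Xylt2 was the xylosyltransferase message present, at 5.67 RPKM in the control library and 5.08 RPKM after Gata6-AS LNA (89.6% of control). Xylt1 stood at 0.0682 and 0.0426 RPKM, and Xylt2 held 98.8% and 99.2% of the pair's sum. B4galt7, which adds the first galactose, was at 5.67 against 8.06 RPKM, 142% of control (126% to 161%) and a log2 difference of 0.44, the second most positive among the members. B3galt6, a gene of a single exon that adds the next galactose, stayed below 1 RPKM at 0.592 and 0.473 RPKM. B3gat3, which adds glucuronic acid, had the highest level of the linkage enzymes at 41.5 against 38.4 RPKM (92.4%). The linkage genes therefore lay on both sides of the control level, and none passed the 1.5-fold rule.

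Chain polymerisation is carried out by a complex of the exostosins Ext1 and Ext2, and Ext1 lay further below control than Ext2. Ext1 was at 10.1 RPKM in the control library and 6.67 RPKM after Gata6-AS LNA, 66.3% of control (64.1% to 68.5%). Its difference of log2(RPKM + 1), -0.53, fell short of the 1.5-fold limit of 0.58, although the plain ratio is past it. In the authors' deposited table it was listed at -0.62 (p = 0.0261). Ext2 was at 24.7 against 22.4 RPKM, 90.7% (88.2% to 93.3%). The ratio of Ext2 to Ext1 in RPKM was 2.45 in the control and 3.36 in the Gata6-AS LNA library. Extl3, which adds the first N-acetylglucosamine and so commits a linkage to heparan sulfate, was at 7.84 against 6.79 RPKM (86.6%). Extl2, an exostosin-like transferase that acts on the linkage region, was on the other side at 6.25 against 7.48 RPKM (120%, 113% to 126%). Extl1 stood at 3.31 and 3.11 RPKM, with an interval of its ratio that holds 100% (87.4% to 101%). All 5 exostosin genes were above 1 RPKM, 4 of them lower and 1 higher in the Gata6-AS LNA library.

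N-sulfation opens the way for later modifications, and its isoenzymes differed. Ndst1, the main N-deacetylase/N-sulfotransferase of most tissues, was at 7.57 RPKM in the control library and 5.46 RPKM after Gata6-AS LNA, 72.1% of control (69.3% to 75.1%). Its log2 difference was -0.41, and in the authors' deposited table it was -0.51 (p = 0.0431). Ndst2, known from mast cell heparin, was at 9.92 against 10.5 RPKM, 106% (102% to 111%). The share of Ndst1 in the summed RPKM of the family was 43.3% in the control and 34.1% in the Gata6-AS LNA library. Ndst3 was at 0 in both libraries, and a count of 0 over a kilobase still allows a control level of 0.0290 RPKM and a level of 0.0244 RPKM after Gata6-AS LNA. The epimerase Glce, which turns glucuronic into iduronic acid, was at 6.13 against 5.46 RPKM (89.1%).

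The O-sulfotransferases were split by the position they modify. The 2-O-sulfotransferase Hs2st1 was at 11.5 RPKM in the control library and 12.2 RPKM after Gata6-AS LNA (107% of control). The 6-O-sulfotransferase Hs6st1 was at 23.8 against 25.2 RPKM (106%). Hs6st2 was at 101%. None of these 3 differed by more than 7% either way.
Both 3-O-sulfotransferases were lower. Hs3st1 had a ratio of 65.8% (64.6% to 66.9%) from at least 29013 and 22656 reads, and a log2 difference of -0.60, the 201st most negative of the 10868 genes. In mm9 it occupies chromosome 5 from 40005174 to 40146714, minus strand. Hs3st3b1, which makes 3-O-sulfated sites of another kind, was at 4.88 RPKM in the control library and 2.91 RPKM after Gata6-AS LNA. Its ratio was 59.7% (56.2% to 63.5%) and its log2 difference -0.59, only just past the 1.5-fold limit. Its mm9 position is chromosome 11 from 63699294 to 63735792, minus strand. The authors' deposited table lists Hs3st1 at a log2 difference of -0.56 (p = 0.0558) and Hs3st3b1 at -0.82 (p = 0.0145). The close paralogue Hs3st3a1, from a list of other heparan sulfate enzymes, was at 2.68 against 1.19 RPKM. That is 44.2% of control (39.9% to 48.9%), with a log2 difference of -0.75. It lies 513041 bp from Hs3st3b1, and how reads that fit both genes were counted is not given, so their separate values are uncertain. The sum of the 3 genes was 155 RPKM in control cells and 101 RPKM after Gata6-AS LNA, 65.2% of control. The other 3-O-sulfotransferase genes, Hs3st2, Hs3st4, Hs3st5 and Hs3st6, were below 0.03 RPKM in both libraries or at 0. Because Hs3st1 is so abundant, the 5 O-sulfotransferases of the set summed to 191 and 141 RPKM, with Hs3st1 holding 76.9% of the sum in the control and 68.6% in the Gata6-AS LNA library. Levels of message say nothing of the amount of each sulfate on the chains, which was not measured.

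**Figure D3:**
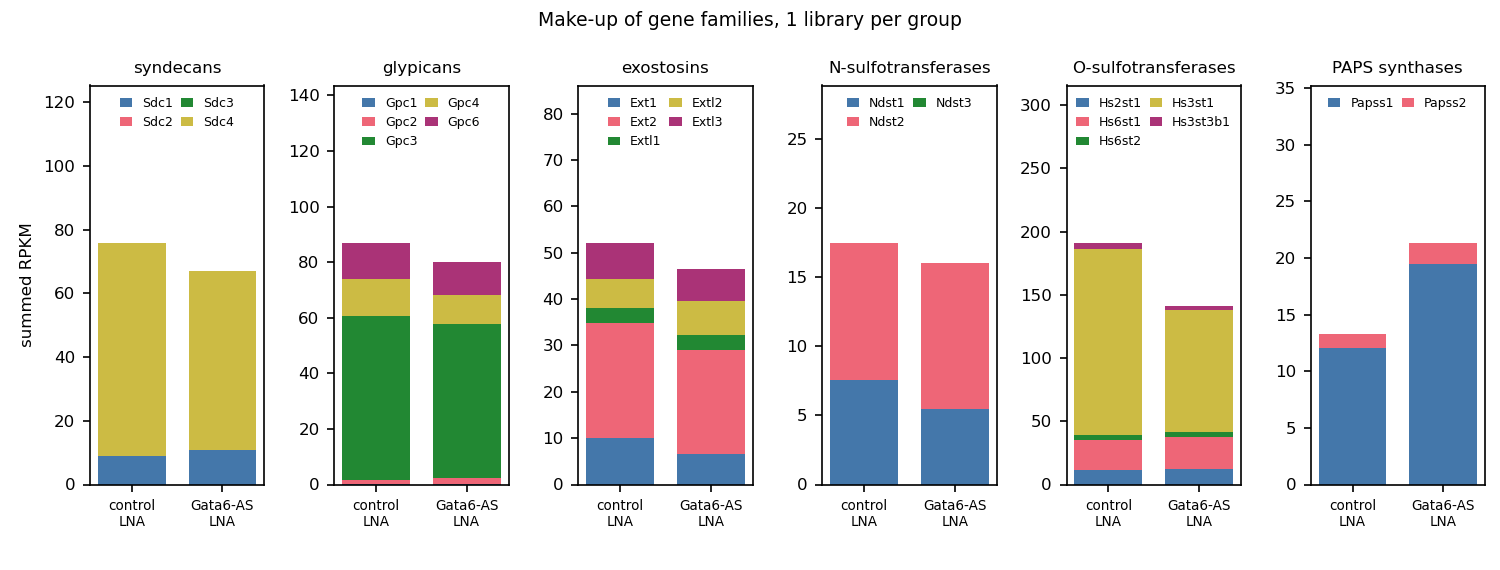
Summed RPKM of 6 gene families in each library, stacked by gene (linear axes from 0, a separate scale per family). Sdc4, Gpc3 and Hs3st1 make up most of their families, the O-sulfotransferases sum to 191 RPKM (control) and 141 RPKM (Gata6-AS LNA), and the sum of the PAPS synthases is 13.3 RPKM in the control library and 21.4 RPKM after Gata6-AS LNA.

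The sulfatases that edit finished chains outside the cell differed little. Sulf1 and Sulf2 remove 6-O-sulfate from chains at the cell surface and so alter Wnt, fibroblast growth factor and bone morphogenetic protein signalling. Sulf2 was at 22.0 RPKM in the control library and 23.9 RPKM after Gata6-AS LNA, 109% (106% to 112%). It overlaps Ncoa3 on the opposite strand, and was the only member that overlaps an expressed gene there. Sulf1 was at 7.91 against 7.34 RPKM, 92.9% (86.0% to 100.3%). Heparanase, Hpse, which cuts the chains, rested on 2 reads in the control and 1 in the Gata6-AS LNA library, a ratio of 42.1% with an interval from 0.714% to 809%.

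Messages for both synthases of the sulfate donor were higher in the Gata6-AS LNA library. Those for its Golgi transporter Slc35b2 and for a sugar precursor enzyme lay within 4% of control. PAPS is made by the bifunctional synthases Papss1 and Papss2. Papss1 had the most positive difference of the members, 0.64 on the log2(RPKM + 1) scale, and a ratio of 161% (154% to 168%). It lies on the plus strand of chromosome 3 in mm9, from 131227732 to 131306634, and was listed in the authors' deposited table at 0.64 (p = 0.0244). Papss2 was at 1.21 RPKM in the control library and 1.89 RPKM after Gata6-AS LNA, 157% (140% to 176%), but its log2(RPKM + 1) difference of 0.39 did not pass the rule at this low level. The pair kept its proportions, with Papss1 at 90.9% and 91.1% of the sum. Slc35b2, a transporter that brings PAPS into the Golgi, was at 10.8 against 10.6 RPKM (98.7%, 94.0% to 104%). Ugdh, which makes UDP-glucuronic acid for the backbone, was at 6.53 against 6.28 RPKM (96.3%, 90.2% to 103%). The intervals of these last genes hold 100%, so neither ratio was distinguishable from the control by counting error alone. Slc26a2, the sulfate importer of the plasma membrane, from the other enzyme and cofactor list, was at 6.82 against 10.6 RPKM (156%, log2 difference 0.57), and was named after its value was seen. Slc35b3, a further PAPS transporter of that list, was at 4.72 against 4.24 RPKM (89.8%, 82.5% to 97.6%). It too was named after its value was seen.

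Of the 35 members 5 were listed in the authors' deposited table, all with a mean above 1 RPKM: Hs3st1, Hs3st3b1, Ext1 and Ndst1 as lower and Papss1 as higher. That is 14.3% of the 28 measured members as lower and 3.57% as higher, beside 5.71% and 6.23% of all measured genes. The p-values there were made from single libraries by a test not given in the sources used, and both tables rest on the same libraries.

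Further genes of these pathways were described from 6 lists with 67 entries, of which 40 had a mean of at least 1 RPKM. On the log2(RPKM + 1) scale, 4 of these 40 were at least 1.5-fold lower, 1 was at least 1.5-fold higher and none passed 2-fold, although Hs3st3a1 passed it by its plain ratio, at 44.2% of control. Of all measured genes 1.95% were at least 1.5-fold lower and 3.42% higher. By plain ratio Nrp1 (163% of control), Slc26a2 (156%), Idua (63.4%) and Chst3 (64.3%) were also past 1.5-fold, but not on the log2(RPKM + 1) scale. Nrp1, Idua and Chst3 were named after their values were seen. The median log2 difference of the 40 was -0.12. Among the other heparan sulfate core proteins 5 were measured and none passed the rule. The matrix core proteins Hspg2 (perlecan) and Agrn (agrin) had the highest levels there, at 72.0 against 79.1 RPKM and 60.2 against 47.4 RPKM. Of 8 other heparan sulfate enzymes and cofactors 1 passed, Hs3st3a1.

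Chondroitin and dermatan sulfate synthesis, which competes for the same linkage, had 11 measured genes with a median of 0.14, 1 past the rule in each direction. Chst15, which makes the disulfated chondroitin sulfate E unit, was at 38.4 RPKM in the control library and 19.4 RPKM after Gata6-AS LNA (50.6%, log2 difference -0.95). Chst12, a chondroitin 4-O-sulfotransferase, was at 8.99 against 14.9 RPKM (166%, 0.67). Among 6 measured chondroitin sulfate core proteins, with a median of -0.37, 5 lay below 0 and 1 passed the rule. The gene past the rule was Srgn (serglycin), the core protein of secretory granules, at 76.0 against 41.6 RPKM (54.8%, -0.85). The median of these core proteins was -0.19 when each library was scaled to 1000000 summed RPKM and 0 with no filter. More genes of the list are measured under both settings. Lysosomal enzymes that degrade heparan sulfate had 6 measured genes, 5 of them below 0, with a median of -0.24 and none past the rule. The glucosaminidase Naglu was at 27.1 against 21.8 RPKM. Of the 4 measured genes that release core proteins from the surface, the protease Adam10 was at 112 RPKM in the control library and 64.2 RPKM after Gata6-AS LNA (57.1%, -0.80) and the others did not pass the rule.

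**Figure D4:**
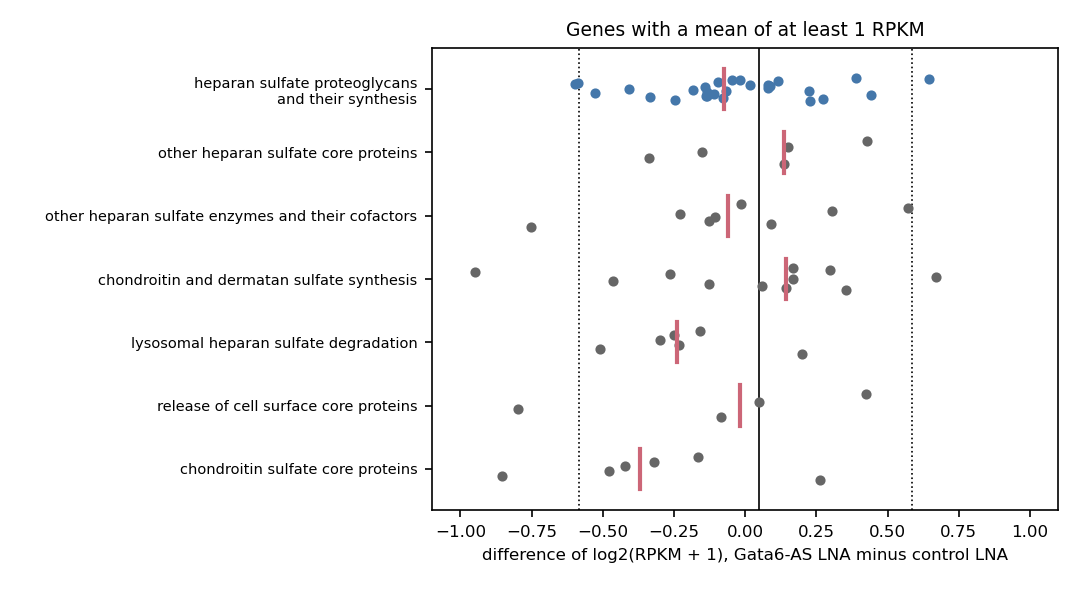
Difference of log2(RPKM + 1), Gata6-AS LNA minus control LNA, for genes averaging at least 1 RPKM in the heparan sulfate set (top row) and in 6 further lists, 1 point per gene. Red bars are list medians, the solid line is the median of all measured genes (0.05) and dotted lines mark 1.5-fold; the points past the left line are Hs3st1, Hs3st3b1, Hs3st3a1, Chst15, Adam10 and Srgn.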

How the data were processed

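RPKM values of 2 libraries were deposited by the authors in 1 table with mm9 coordinates, and TopHat and mm9 are named in the submitters' processing notes. The counter, annotation, gene lengths, use of strand and treatment of multiply mapped reads are not given in the sources used. Levels and shares set side by side between genes rest on those lengths. The authors also deposited their own comparison, with log2 values per library, a log2 difference and a p-value of up to 0.0750 for each of 2099 genes, and it was joined by coordinates.

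The measure was the difference of log2(RPKM + 1), Gata6-AS LNA minus control LNA, for genes averaging at least 1 RPKM over both libraries with a span of at least 100 bp. No test between conditions was made. A 1.5-fold and a 2-fold size rule took its place. Reads behind a value were recovered from whole-number steps of RPKM times length. Genes under 3000 bp were tried with their span as length. Whole reads came from 812 of 2094 such genes in the control and 886 of 2211 in the Gata6-AS LNA library (tolerance 0.0002 reads plus 3e-07 of the count). The least number of reads at a length of up to 30000 bp, or at the GENCODE M21 exonic length where that was shorter, gave each exact (Clopper-Pearson) 95% interval. Intervals and the floor of 3 reads cover counting error only; reads are not independent molecules. Recovery of the depth was tested on simulated data. For reads, the simulation checked only that the least number did not exceed the true number, so it does not test the fitted lengths.

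The members and lists were chosen with earlier results of these data known. Named were all members, Gata6-AS, Gata6 and, of the lists, genes past the 1.5-fold rule, or in lists with none those with the 2 highest means. A gene that this rule names is not reported here. By symbol 65 of the 67 list entries were found, and 2 by a RefSeq synonym. Promoters came from RefSeq. Chosen after their values were seen were Slc26a2, Slc35b3, Nrp1, Idua, Chst3 and the 4 further 3-O-sulfotransferases. Alternatives were other pseudocounts (0.1, 0.5), a median of 0, each library scaled to 1000000, a filter at 0 or at an average of 5 RPKM, and summed rows per symbol. Python 3.11.15, pandas 2.3.3, numpy 2.4.6 and scipy 1.17.1 were used.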

Additional observations from a re-analysis of the deposited data

How the results depend on the processing

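No paired analysis was possible because each group has 1 library, and for the same reason no library could be left out. With a pseudocount of 0.1 RPKM 2 members were at least 1.5-fold higher, Papss2 joining Papss1, and 3 lower, Ext1 joining at -0.59; scaling each library to 1000000 summed RPKM also added Ext1 (-0.60). With a mean of at least 5 RPKM 1 member was lower, since Hs3st3b1 falls under that level. Among the pathway lists, those counts were 3 higher, 6 lower and 1 at least 2-fold lower with a pseudocount of 0.1. A pseudocount of 0.5 gave 2 higher. The scaling gave 2 higher, 7 lower and 2 at least 2-fold lower, and a mean of at least 5 RPKM gave 3 lower. With a mean of at least 5 RPKM the median of other heparan sulfate core proteins turned to -0.15 and that of other enzymes and cofactors to 0.091. That of genes releasing core proteins turned to 0.050 at this mean, and with the scaling it was 0.027. Fewer genes are measured at the higher mean. The scaling raises the values of both libraries, so that more genes pass the mean of 1 RPKM and the pseudocount weighs less. Xylt1, for example, moved from -0.035 to -0.120 with it. The median of chondroitin sulfate core proteins moved from -0.37 to -0.19 with the scaling and to 0 with no filter, that of chondroitin and dermatan sulfate synthesis from 0.14 to 0.040 with no filter, and that of other enzymes and cofactors from -0.06 to 0; with no filter more genes enter each of these lists. The median of the members stayed below 0 under these alternatives, from -0.12 to -0.04. Hs6st2 changed sign when the median of all genes was set to 0 (-0.03) and with the scaling (-0.01), and was near 0 throughout. Sdc3, which is below 1 RPKM, also changed sign when that median was set to 0, from 0.02 to -0.03. Depth limits Sdc2, Hpse and Ndst3, with 0 to 5 reads per library.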
